A study of Mus musculus with 8 samples.

Results

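The genes described here are 44 markers of white blood cell lineages, taken by symbol from a deposited table of 31228 mouse genes. Every one of the 44 was found in the table. They comprise the pan-leukocyte gene Ptprc, 12 T cell genes, 5 cytotoxic and natural killer (NK) cell genes, 6 B and plasma cell genes, 13 macrophage and other myeloid genes, 2 receptor adaptors, 2 neutrophil genes and 3 mast cell genes. RNA sequencing covered 8 libraries from C57BL/6 mice. These were 1 library of extrahepatic bile duct epithelium, 1 of pancreatic duct epithelium, 3 of bile duct organoids and 3 of pancreatic duct organoids. The ducts were dissected, minced and digested with collagenase IV, and the material called epithelia went into Trizol without any step that sorts epithelial cells from others. Organoids, which are hollow cultures of epithelial cells in Matrigel, grew for 3 to 4 passages in D/F12 medium with B27, Glutamax, antibiotics, EGF, R-Spondin-1, Noggin, FGF10, nicotinamide and N-acetylcysteine, started in Wnt3A and Y27632 that were later withdrawn. No sample served as a control, no group carried a genetic change, and the labels give no age and do not say whether the 3 organoids of a group came from separate mice, so p-values between organoid groups measure only the spread between these cultures.

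Ducts of the gut and its glands hold resident leukocytes in and under the epithelium. B cells recognise antigen through a membrane immunoglobulin coupled to the CD79 chains, and they mature into plasma cells that secrete IgM, IgG or IgA, the last being the main antibody of mucosal surfaces. T cells recognise antigen through a T cell receptor coupled to CD3, and cytotoxic T cells and NK cells kill through granzymes. Macrophages engulf debris and make the complement protein C1q, while neutrophils and mast cells store their effector proteins in granules. Organoid medium is made to grow epithelium.

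Levels are given in FPKM as deposited, that is, reads or fragments divided by exon length and by the size of the library, a unit that is per length and so allows genes to be compared with each other. A fold is a ratio of FPKM after scaling between libraries. Its interval is a 95% counting interval from the read numbers that the FPKM values imply, which were whole for 37 of the 44 genes. Differences are on the scale log2(scaled FPKM + 1), which understates changes of weak genes, and 2-fold means a difference of 1 on it. The libraries held between 12876470 and 20828217 implied reads. With 1 library for each epithelium the differences between the epithelia have no replicate check, and no p-value is given for them. In RNA from a whole digest, fewer cells of a type and less RNA per cell cannot be told apart.

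The epithelia differed in which leukocyte genes they held rather than in the general leukocyte gene. Of the 43 members at 1 scaled FPKM or more in either epithelium, 19 were at least 2-fold higher in bile duct, 4 were at least 2-fold higher in pancreatic duct and 20 lay under 2-fold. Over all 15533 genes compared, the shares at least 2-fold higher were 9.05% for bile duct and 4.67% for pancreatic duct, 13.7% in all. The median difference of the members, bile duct minus pancreatic duct, was 0.88, against -0.04 over all genes, and 34 of the 43 lay above 0. Klrb1c, an NK cell receptor, was the member that did not reach the level, at 0.315 FPKM in bile duct against 0.240 in pancreatic duct. The 4 genes higher in pancreatic duct were all from the B and plasma cell role, whereas the 19 higher in bile duct came from every other role except Ptprc, together with the antibody genes Igkc and Jchain.

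**Figure D1:**
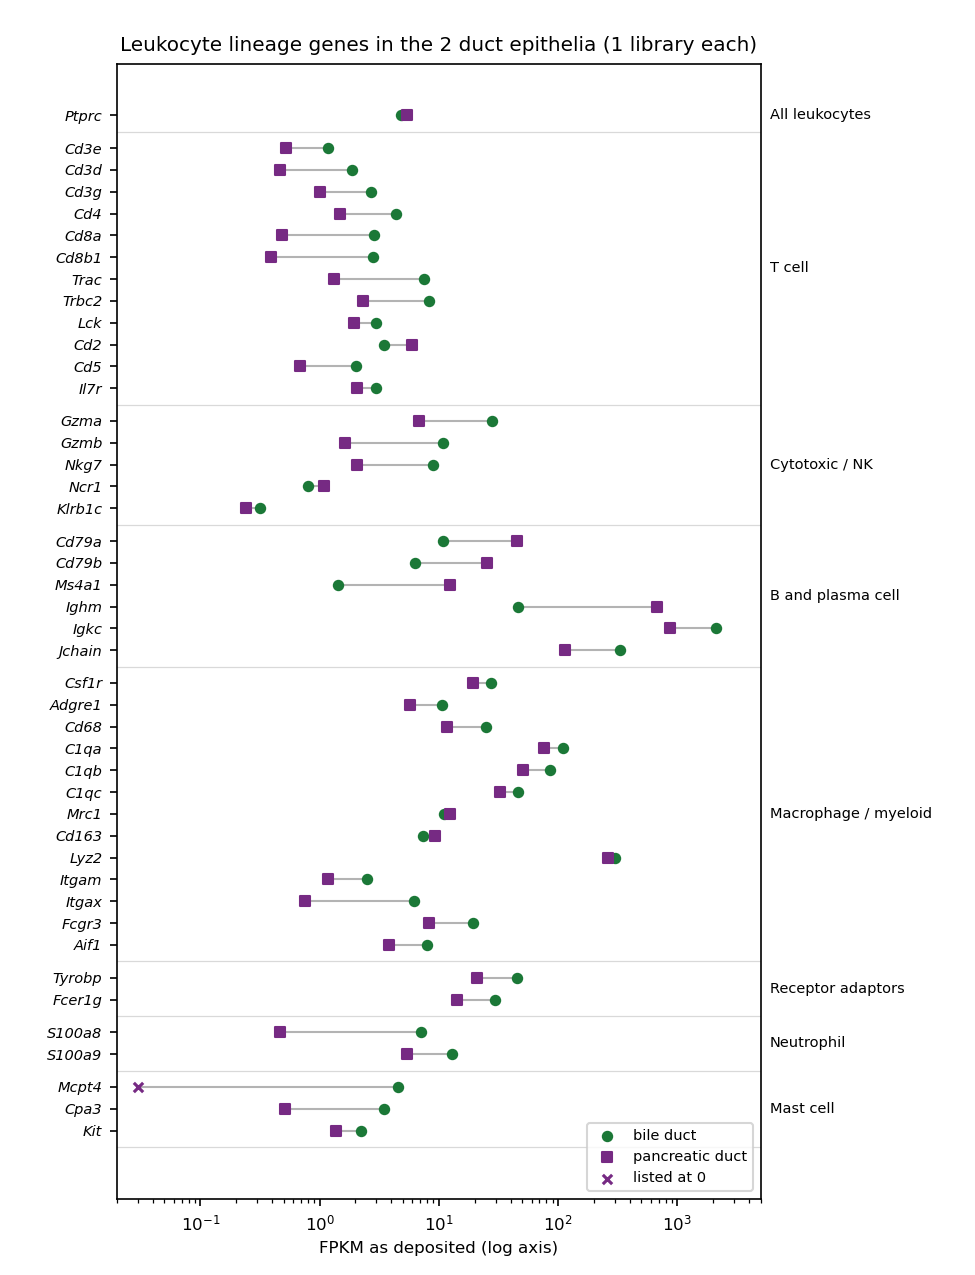
FPKM as deposited, on a log axis, of the 44 leukocyte genes in bile duct epithelium (circles) and pancreatic duct epithelium (squares), 1 library each, grouped by role. Ighm, Ms4a1, Cd79a and Cd79b lie to the right in pancreatic duct, while most T cell, cytotoxic, neutrophil and mast cell genes lie to the right in bile duct; the cross marks Mcpt4, listed at 0 in pancreatic duct.

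Ptprc encodes CD45, a phosphatase carried by all nucleated blood cells. It stood at 4.86 FPKM in bile duct against 5.44 in pancreatic duct epithelium, a 1.14-fold (1.06 to 1.23) higher level in pancreatic duct. A list of 20 other genes of leukocyte signalling was as even. None of its 20 genes, all above the level, was 2-fold apart on the log2(scaled FPKM + 1) scale, and their median difference was -0.05. The widest differences among them were those of Ptpn22, a phosphatase that restrains antigen receptor signals, at 1.32 FPKM in bile duct against 2.64 in pancreatic duct, and of Laptm5, a lysosomal protein of blood cells, at 23.2 and 15.2.

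Genes of B cells were higher in pancreatic duct epithelium. Ighm, the heavy chain of IgM, which B cells carry and plasma cells can secrete (chr12:113418558-113422730, GRCm38), was at 46.3 FPKM in bile duct against 679 in pancreatic duct, 14.9-fold (14.1 to 15.9) higher there. Ms4a1, which encodes the B cell surface protein CD20, was at 1.43 and 12.4 FPKM, 8.83-fold (7.28 to 10.8) higher in pancreatic duct. The signalling chains of the B cell receptor followed. Cd79a was at 10.8 and 45.1 FPKM, a 4.24-fold (3.64 to 4.96) difference, and Cd79b at 6.35 and 25.3 FPKM, a 4.05-fold (3.32 to 4.99) difference. Of 15 further B cell genes, 9 were at least 2-fold higher in pancreatic duct, 0 in bile duct, with a median of -1.16. Among them were Cd37, a tetraspanin, at 3.33 and 16.1 FPKM (4.93-fold, 4.15 to 5.90) and Spib, a B cell transcription factor, at 3.71 and 13.6 FPKM (3.74-fold, 3.10 to 4.54).

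Igkc, Jchain and Igha were higher in bile duct, opposite to Ighm. Igkc, the constant part of the kappa light chain (chr6:70726435-70726966), was the most abundant member, at 2104 FPKM in bile duct against 863 in pancreatic duct, 2.39-fold (2.33 to 2.46) higher in bile duct. Jchain, the chain that joins IgA or IgM units into polymers, was at 329 and 115 FPKM, 2.81-fold (2.71 to 2.91) higher in bile duct. The heavy chain in use differed between the ducts. Igha, the heavy chain of IgA, was at 805 FPKM in bile duct against 34.4 in pancreatic duct, 23.0-fold (21.8 to 24.3) higher in bile duct, against the reverse for Ighm. Igha made 88.4% of the summed FPKM of 7 heavy-chain genes in bile duct and 4.72% in pancreatic duct, while Ighm made 5.09% and 93.3%. Ighd, the heavy chain of IgD on naive B cells, was at 3.52 and 7.29 FPKM. Kappa light chain stood at 2.31 times the summed heavy chains in bile duct and at 1.19 times in pancreatic duct.

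**Figure D2:**
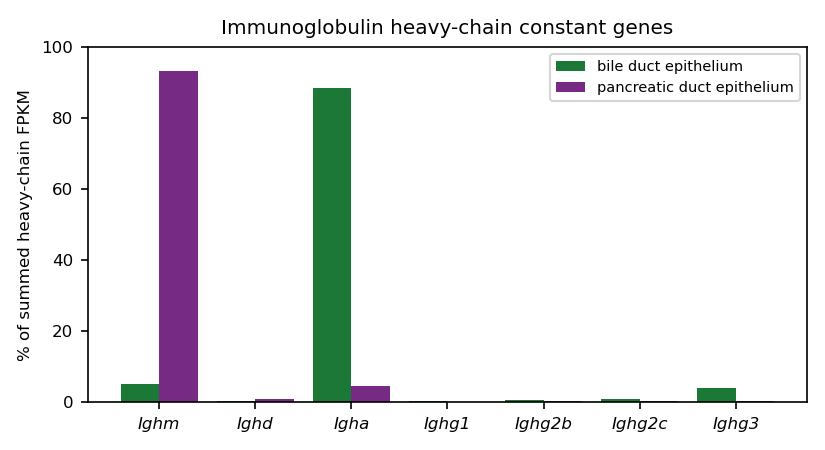
Share of the summed FPKM of 7 immunoglobulin heavy-chain constant genes, in percent, in bile duct and pancreatic duct epithelium, 1 library each. Igha takes 88.4% in bile duct and Ighm takes 93.3% in pancreatic duct.

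Of 13 further plasma cell genes, 5 were at least 2-fold higher in bile duct, 0 in pancreatic duct, and the median was 0.25. Those 5 were antibody chains. Ighg3, a heavy chain of IgG, was at 37.7 and 2.42 FPKM (15.3-fold, 12.4 to 19.1), and Iglc1, a lambda light chain, at 59.2 and 9.12 FPKM (6.37-fold, 4.87 to 8.46). The 8 under 2-fold included Mzb1, a chaperone of antibody assembly, at 15.0 and 13.6 FPKM, which was picked out after its values were seen. None of the 50-base stretches of Ighm, Igkc or Igha occurs in another annotated gene. How the authors treated reads that match several genes is not given in the sources used here.

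Among stromal markers of lymphoid tissue, Cxcl13 moved with the B cell genes. The 8 genes of that list summed to 32.1 FPKM in bile duct against 348 in pancreatic duct, with 1 of the 5 at 1 scaled FPKM or more at least 2-fold higher in pancreatic duct and 1 in bile duct. The sum was carried by Cxcl13, a chemokine that draws B cells into follicles, at 20.4 and 334 FPKM (16.7-fold, 14.9 to 18.8, higher in pancreatic duct), whereas Ccl19, a chemokine of T cell zones, was at 2.42 and 0.672 FPKM. Lymphatic endothelium markers summed to 89.7 FPKM in bile duct against 149 in pancreatic duct, with 3 of 5 higher in pancreatic duct, and blood endothelium markers to 330 and 562 FPKM, with 1 of 6 at least 2-fold higher in pancreatic duct. Their part in the B cell difference was not tested.

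T cell genes were low in both epithelia and mostly higher in bile duct. Of the 12, 6 were at least 2-fold higher in bile duct, 0 in pancreatic duct, with a median of 0.97. Trac, the constant part of the T cell receptor alpha chain, was at 7.48 FPKM in bile duct against 1.31 in pancreatic duct, 5.58-fold (3.38 to 9.70) higher in bile duct. Trbc2, a constant part of the beta chain, was at 8.30 and 2.34 FPKM, 3.49-fold (2.19 to 5.73) higher. Its sequence is shared with its neighbour Trbc1 in 44% of its 50-base stretches, so the split between them is uncertain, and Trbc1 was at 6.22 and 1.64 FPKM. The co-receptors followed the receptor. Folds were 2.88 (2.25 to 3.70) for Cd4, which marks helper T cells, 5.89 (3.88 to 9.27) for Cd8a and 7.07 (3.46 to 16.3) for Cd8b1, the chains of the cytotoxic co-receptor. The level of Cd8a was 0.659 times that of Cd4 in bile duct and 0.322 times in pancreatic duct. The CD3 chains that carry the receptor's signal were at 1.18 and 0.523 FPKM for Cd3e, 1.88 and 0.463 for Cd3d and 2.68 and 1.01 for Cd3g, of which Cd3d passed 2-fold on the log2(scaled FPKM + 1) scale, though not with deposited FPKM (0.98).

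The remaining T cell genes lay under 2-fold on the log2(scaled FPKM + 1) scale. Their plain ratios could be wider, at 2.89 for Cd5, 2.61 for Cd3g and 2.21 for Cd3e. Lck, a kinase of the T cell receptor, was at 3.00 FPKM in bile duct against 1.94 in pancreatic duct, Il7r, the receptor for the survival factor IL-7, at 3.00 and 2.06, and Cd5, a brake on receptor signals, at 2.03 and 0.688. Cd2 was the single T cell member higher in pancreatic duct, at 3.48 and 5.98 FPKM (1.75-fold, 1.33 to 2.33). In mice Cd2 is an adhesion protein of B cells as well as of T and NK cells. Among further T cell genes, 5 of 10 passed 2-fold towards bile duct and 0 towards pancreatic duct. The 5 included the transcription factor genes Tcf7, at 5.62 and 2.05 FPKM, and Bcl11b, at 1.28 and 0.112, the latter named after its values were seen. Both were also read in every organoid, Tcf7 at 7.53 to 10.3 FPKM and Bcl11b at 0.934 to 2.28. Trat1, an adaptor of the T cell receptor, was at 2.27 FPKM in bile duct and listed at 0 in pancreatic duct. Among 8 genes of intraepithelial and gamma-delta T cells 2 were higher in bile duct, namely Ccl5, a chemokine of effector T cells, at 33.2 and 6.20 FPKM (5.25-fold, 4.18 to 6.66) and Cd7 at 3.84 and 0.457 FPKM (8.25-fold, 3.91 to 20.0).

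Cytotoxic granule genes were higher in bile duct, and the NK receptor genes among the members, Ncr1 and Klrb1c, were near or under 1 FPKM in both. Gzma, granzyme A (chr13:113093825-113100979), was at 28.0 FPKM in bile duct against 6.85 in pancreatic duct, a ratio of 4.02. Gzmb, granzyme B, was at 11 and 1.64 FPKM, a ratio of 6.55. No counting interval is given for these genes because their values did not come out as whole reads. Nkg7, a granule membrane protein of killer cells, was at 9.01 and 2.05 FPKM, 4.31-fold (2.83 to 6.74) higher in bile duct. Ncr1, the NK receptor NKp46, was at 0.807 and 1.09 FPKM, with an interval that spans equality (0.712 to 2.75 for pancreatic over bile duct). Of 4 further NK genes at the level, 2 passed 2-fold towards bile duct and 0 towards pancreatic duct. Gzmk, granzyme K, was at 1.51 and 0.140 FPKM, and Klrd1, the receptor chain CD94, at 3.58 and 1.31.

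The promoters of 31 of the 44 genes were matched in RefSeq (GRCm38.p6), and 10 short motifs were searched on both strands in the 250 bases before the start. TGTGGTT, the core letters bound by RUNX factors, which act in T, NK and mast cells, occurred in 7 of the 31 (22.6%) and in 4.4% of all 32851 promoters of that length. These 7 were Gzma, Gzmb, Mcpt4, Cpa3, Lck, Lyz2 and Ncr1. The first 4 are the granule proteases among the members, all 2-fold or more above pancreatic duct in bile duct. They are shown for that reason with the match in capitals (AACCACA is its reverse complement). Lck, Lyz2 and Ncr1 lay under 2-fold, at log2 differences of 0.44, 0.15 and -0.24. A relation of the motif to the difference between the ducts was not tested. All lie on the minus strand and are written 5′ to 3′ towards the gene, at chr13:113100982-113101231 for Gzma, chr14:56262335-56262584 for Gzmb, chr14:56062311-56062560 for Mcpt4 and chr3:20242182-20242431 for Cpa3.
Gzma: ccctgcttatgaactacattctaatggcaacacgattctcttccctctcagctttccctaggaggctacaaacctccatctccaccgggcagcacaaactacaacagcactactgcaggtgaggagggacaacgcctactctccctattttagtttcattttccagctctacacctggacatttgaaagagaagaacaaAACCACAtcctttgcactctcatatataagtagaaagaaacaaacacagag
Gzmb: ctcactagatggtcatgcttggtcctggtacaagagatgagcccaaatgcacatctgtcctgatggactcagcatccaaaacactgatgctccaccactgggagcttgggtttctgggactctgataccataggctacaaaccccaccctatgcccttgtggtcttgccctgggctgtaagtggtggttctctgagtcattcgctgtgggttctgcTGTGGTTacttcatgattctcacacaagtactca
Mcpt4: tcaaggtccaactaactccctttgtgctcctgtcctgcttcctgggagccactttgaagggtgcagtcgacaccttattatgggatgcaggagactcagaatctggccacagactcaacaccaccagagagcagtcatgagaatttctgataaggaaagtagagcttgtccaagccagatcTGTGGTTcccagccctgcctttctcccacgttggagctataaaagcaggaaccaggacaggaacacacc
Cpa3: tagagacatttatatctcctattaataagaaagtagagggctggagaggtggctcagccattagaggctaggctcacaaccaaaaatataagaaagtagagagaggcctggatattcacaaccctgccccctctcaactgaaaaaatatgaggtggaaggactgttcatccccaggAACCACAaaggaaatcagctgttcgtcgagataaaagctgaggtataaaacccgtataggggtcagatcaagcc
The match spans bases 51 to 45 before the start in Gzma, 34 to 28 in Gzmb, 69 to 63 in Mcpt4 and 74 to 68 in Cpa3. CAGGAAG, an ETS factor core, occurred in 13 of 31 (41.9%), against 10.8% of all promoters. The PU.1 letters GAGGAAGT occurred in 3 (9.68%, against 2.44%), and the purine box AGAGGAA, which can overlap both, in 6 (19.4%, against 8.55%). The GATA letters AGATAAG occurred in 1 (3.23%, against 2.74%), the E-box CAGCTG in 3 (9.68%, against 13.0%) and the EBF paired letters CCCNNGGG in 2 (6.45%, against 11.8%). The octamer ATGCAAAT, the C/EBP letters TTGCGCAA and the longer EBF motif occurred in 0, against 1.60%, 0.164% and 0.198%. A match describes letters only and is not evidence that a factor binds there.

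Macrophage genes were abundant in both epithelia, and most lay under 2-fold apart. Of the 13 macrophage and myeloid members, 3 were at least 2-fold higher in bile duct, 0 in pancreatic duct, with a median of 0.70. The chains of complement C1q were at 110 and 77.1 FPKM (C1qa), 85.1 and 50.8 (C1qb) and 46.1 and 32.3 (C1qc) in bile duct and pancreatic duct, which are folds of 1.40 (1.30 to 1.51), 1.65 (1.51 to 1.80) and 1.40 (1.28 to 1.53). The ratio of C1qa to C1qc was 2.39 in bile duct and 2.38 in pancreatic duct. Csf1r, the receptor for the macrophage growth factor M-CSF, was at 27.4 and 19.3 FPKM, and Adgre1, which encodes the macrophage antigen F4/80, at 10.7 and 5.78. Cd163, the scavenger receptor for haemoglobin, was at 7.41 and 9.31 FPKM (1.28-fold, 1.14 to 1.43, higher in pancreatic duct), and Mrc1, the mannose receptor, at 11.1 and 12.3 (1.14-fold, 1.04 to 1.24). Lyz2, the lysozyme of myeloid cells, was at 301 and 265 FPKM, 1.11-fold (1.07 to 1.16) higher in bile duct. It shares 15.4% of its 50-base stretches with Lyz1, the lysozyme of Paneth cells, which was at 71.3 and 10.4 FPKM.

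The 3 that passed were Itgax, Fcgr3 and Cd68. Itgax encodes CD11c, an integrin of dendritic cells and of some macrophages, and was at 6.26 FPKM in bile duct against 0.754 in pancreatic duct, 8.15-fold (6.14 to 11) higher. Fcgr3, an activating receptor for IgG, was at 19.3 and 8.31 FPKM, 2.28-fold (1.94 to 2.70) higher, and shares 9.58% of its stretches with the inhibitory receptor Fcgr2b, at 7.63 and 5.79 FPKM. Cd68, a lysosomal protein of macrophages, was at 24.7 and 11.7 FPKM, 2.08-fold (1.76 to 2.46) higher. Aif1, a calcium-binding protein of macrophages, was at 7.91 and 3.84 FPKM. Itgam, the integrin CD11b, was at 2.49 and 1.17 FPKM, but 66.3% of its stretches also belong to the overlapping model Gm49368. Among 19 further macrophage genes 3 were higher in each duct. Fcgr4, another activating IgG receptor, was at 8.72 and 1.03 FPKM (8.31-fold, 5.18 to 14, higher in bile duct), and Marco, a scavenger receptor of macrophages in lymphoid tissue, at 0.928 and 4.27 (4.68-fold, 2.99 to 7.66, higher in pancreatic duct). The list summed to 348 FPKM in bile duct epithelium and 169 to 445 in its organoids, and to 287 in pancreatic duct epithelium and 266 to 400.5 in its organoids. In organoids this was nearly all Cd14, a receptor for bacterial lipopolysaccharide named after its values were seen, at 167 to 442 FPKM against 55.8 and 51.0 in the epithelia, while 18 of the 19 genes were at least 2-fold lower in both kinds of organoid. Lyve1, carried by some resident macrophages and by lymphatic endothelium, was at 50.0 and 42.2 FPKM.

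The receptor adaptors Tyrobp and Fcer1g, which couple activating receptors of myeloid and NK cells to kinases, were at 44.9 and 20.9 FPKM and at 29.6 and 14.1 FPKM in bile duct and pancreatic duct. Their folds were 2.12 (1.79 to 2.51) and 2.06 (1.72 to 2.47), on either side of the 2-fold line at log2 differences of 1.05 and 0.996. Monocyte genes were nearly even at a median of 0.09, with 1 of 6 at least 2-fold higher in bile duct. This was Plac8, at 226 and 41.0 FPKM, which in organoids still reached 46.6 to 161 FPKM. Among 8 dendritic cell genes, 2 were higher in bile duct, 0 in pancreatic duct. They were Cd209a, a lectin, at 6.62 and 1.80 FPKM and Ccl22, a chemokine of mature dendritic cells, at 2.04 and 0.473.

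S100a8 and S100a9 encode the subunits of calprotectin, the main soluble protein of neutrophils. S100a8 was at 7.05 FPKM in bile duct against 0.466 in pancreatic duct, 14.9-fold (6.04 to 47.3) higher from 63 and 5 reads. S100a9 was at 12.9 and 5.45 FPKM, 2.33-fold (1.60 to 3.43) higher. Of 5 further neutrophil genes at the level, 4 were at least 2-fold higher in bile duct, among them Ltf, lactoferrin, at 31.0 and 0.206 FPKM (148-fold, 82.3 to 297), Retnlg at 5.36 and 0.745, and Csf3r, the receptor for the neutrophil growth factor G-CSF, at 4.61 and 1.47 (3.08-fold, 2.37 to 4.02). The other 5 of the 10 genes of that list in the table stayed under 1 scaled FPKM in both epithelia, with the granule gene Camp listed at 0 in both and the surface gene Ly6g at 0.0824 FPKM in bile duct against 0 in pancreatic duct, both named after their values were seen. The list was also read in organoids, where it summed to 17.3 to 608 FPKM in bile duct cultures and 74.7 to 474 in pancreatic duct cultures, against 75.2 and 25.7 FPKM in the epithelia. Ltf, at 77.7, 8.99 and 4.11 FPKM and at 10.6, 31.5 and 16.6, and Lcn2, a siderophore-binding protein named after its values were seen, at 12.7 to 530 FPKM, carried these sums, while Csf3r was listed at 0 in all 6 organoids.

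Mast cell proteases were found in bile duct and hardly in pancreatic duct. Mcpt4, a chymase of connective tissue mast cells, was at 4.55 FPKM in bile duct and listed at 0 in pancreatic duct, and Cpa3, mast cell carboxypeptidase, was at 3.48 and 0.512 FPKM, 6.68-fold (3.59 to 13.6) higher from 68 and 12 reads. Kit, the stem cell factor receptor, which other cells of the gut wall also carry, was at 2.22 and 1.37 FPKM (1.59-fold, 1.31 to 1.93). Of 7 further mast cell genes, 4 were higher in bile duct and 1 in pancreatic duct. The widest were proteases again, with Mcpt2 at 20.1 FPKM and listed at 0, Mcpt1 at 11.6 and 0.126 and Cma1 at 4.56 and 0.120. Mcpt1 and Mcpt2, proteases of mucosal mast cells, were also read in every organoid, at 1.40 to 19.9 FPKM for Mcpt1 and 0.791 to 4.80 for Mcpt2, while Cpa3 and Cma1 were listed at 0 in all 6. Basophil and eosinophil genes were low, with 2 of 3 passing 2-fold towards bile duct and 1 towards pancreatic duct.

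**Figure D3:**
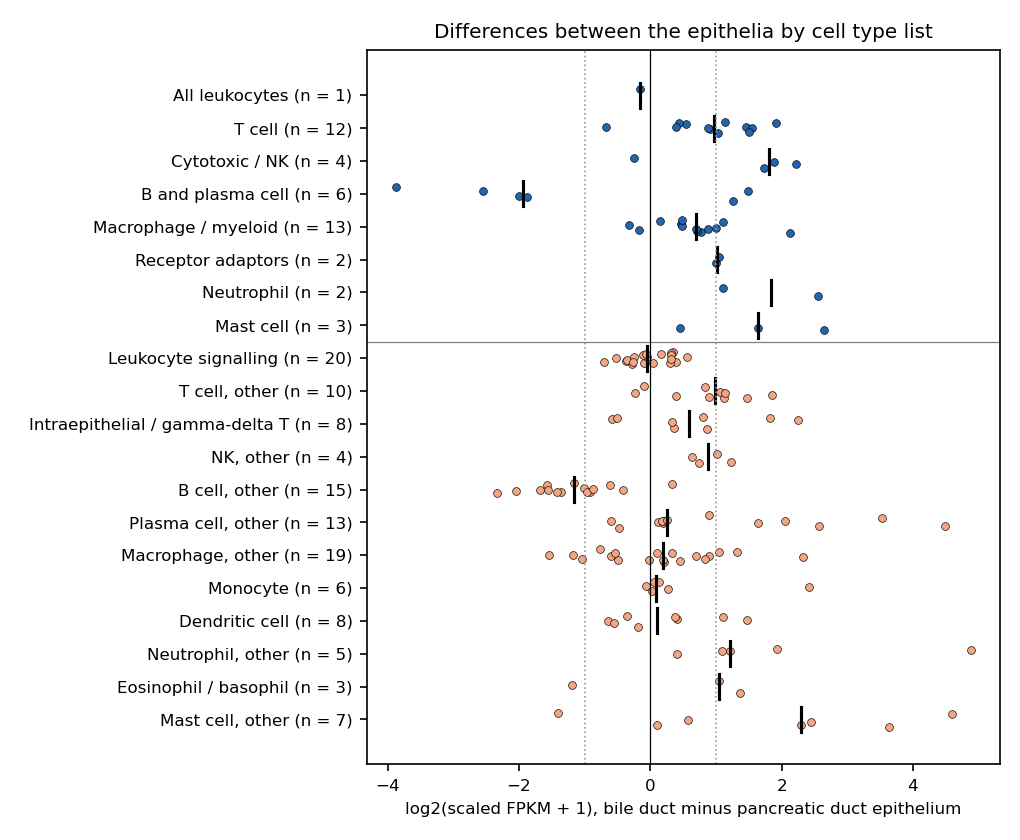
Difference in log2(scaled FPKM + 1), bile duct minus pancreatic duct epithelium (1 library each), for each gene at 1 scaled FPKM or more in either; 8 member roles are above the line and 12 other leukocyte lists below it. Bars mark medians and dotted lines the 2-fold limits; the medians of both B cell lists lie left of 0, those of the neutrophil and mast cell lists lie right of 1, and leukocyte signalling sits around 0.

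Other cell types also differed between these libraries. Epithelial markers summed to 2163 FPKM in bile duct against 461 in pancreatic duct, with 7 of 7 at least 2-fold higher in bile duct, including Krt19 at 432 and 83.8. Markers of intestinal absorptive cells summed to 516 and 22.8 FPKM (7 of 7 higher in bile duct), with Alpi at 94.6 and 3.13, and those of Paneth and goblet cells to 2498 and 664 FPKM (6 of 7 higher in bile duct), with the Paneth defensin Defa24 at 207 and 0.463. None of these was listed at 0 in either epithelium. Acinar markers took 4.10% of all FPKM in bile duct against 9.13% in pancreatic duct, with 2 of 6 at least 2-fold higher in pancreatic duct. Smooth muscle markers summed to 1934 and 3421 FPKM (3 of 6 higher in pancreatic duct) and fibroblast markers to 1603 and 1646 (0 of 7 apart). Red cell genes summed to 346 and 682 FPKM, with 1 of 5 higher in each duct, Hba-a1 at 124 and 350 and Hba-a2 at 12.5 and listed at 0. The mitochondrial genome took 24.9% and 18.8%, against 5.43% to 7.29% in organoids. Intestinal and epithelial markers moved with the T cell, cytotoxic, IgA, neutrophil and mast cell genes, and the summed acinar, muscle, blood vessel and red cell markers were higher where the B cell genes were, with fewer of their genes past 2-fold. Their part in these results was not tested.

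Organoids held few of these transcripts. The 44 genes together summed to 3359 FPKM in bile duct epithelium and to 19.9, 6.74 and 6.60 FPKM in bile duct organoids 1, 2 and 3. They summed to 2317 FPKM in pancreatic duct epithelium and to 15.8, 40.3 and 16.2 FPKM in pancreatic duct organoids 1, 2 and 3. Of the 42 members tested in bile duct, 42 were at least 2-fold lower in organoids on the mean log2 difference, with all 3 organoids below the epithelium, where 26.3% of all 15424 genes were lower and 12.6% higher. Of the 35 tested in pancreatic duct, 32 were lower and 0 higher, where 25.5% of all 15201 genes were lower and 15.0% higher. A member that reaches 1 scaled FPKM in an epithelium and is at 0 in organoids passes 2-fold on this scale by construction, so these counts describe the levels and are no test.

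Of the 44 members, 11 were listed at 0 in all 6 organoids, Cd4, Cd8a, Nkg7, Gzma, Cd163, Itgax and Cpa3 among them. Set against a floor of 3 reads over the 3 organoids, Cd163 was at least 913-fold lower in bile duct organoids and at least 1124-fold lower in pancreatic duct organoids, and Itgax at least 678-fold and 80.1-fold lower. Ptprc had 1, 3 and 0 reads in bile duct organoids and 1, 2 and 1 in pancreatic duct organoids, against 1145 and 1540 in the epithelia. C1qa had 1, 0 and 0 reads and 3, 3 and 0, against 1474 and 1239. Lyz2 was at 0.341, 0 and 0 FPKM in bile duct organoids and at 0.839, 0.734 and 0.0730 in pancreatic duct organoids, at most 0.316% of its epithelium. Tyrobp had 0 reads in all bile duct organoids and at most 1 in a pancreatic duct organoid.

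Weak signal was left for 4 further genes, each highest in bile duct organoid 1 and pancreatic duct organoid 2 of its group. Trbc2 was at 0.811, 0.217 and 0.393 FPKM in bile duct organoids and at 0.188, 0.821 and 0.278 in pancreatic duct organoids. Mrc1 was at 0.784, 0.204 and 0.230 FPKM and at 0.194, 0.678 and 0.158, and Aif1 at 0.513, 0.163 and 0.0710 FPKM and at 0.127, 0.594 and 0.188, in the same order. Kit was at 0.265, 0.0112 and 0.0305 FPKM and at 0.102, 0.153 and 0.0377. Apart from Lyz2 and the genes at 1 FPKM or more described further on, the other 22 members were at most at 0.362 FPKM in any organoid, the level of Ighm in pancreatic duct organoid 2.

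Traces of Igkc and Ighm RNA were confined to bile duct organoid 1 and pancreatic duct organoid 2 among the 6, while those of Jchain were not. Igkc had 4, 0 and 0 reads in bile duct organoids 1, 2 and 3 and 0, 38 and 0 in pancreatic duct organoids 1, 2 and 3, up to 4.06 FPKM. Ighm had 6, 0 and 0 reads and 0, 12 and 0 in the same order, whereas Jchain had 0, 0 and 1 and 0, 6 and 1. The libraries that held the Igkc and Ighm reads led for most members. Bile duct organoid 1 was the highest of its group for 16 of 26 members above 0 (61.5%), against 32.0% of all genes, and pancreatic duct organoid 2 for 22 of 29 (75.9%), against 31.1% of all genes. The red cell gene Hba-a1 moved with them, at 1.24, 0 and 0 FPKM in bile duct organoids and at 0.0799, 3.15 and 0 in pancreatic duct organoids. Red cell markers summed to 0.146 to 2.13 FPKM over bile duct organoids and to 0.134 to 6.61 over pancreatic duct organoids, and their part in the leukocyte reads was not tested.

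Only 6 of the 44 members reached 1 FPKM in any organoid, and 2 of these, S100a9 and Cd68, did so in every one. S100a9 was at 8.5, 1.25 and 1.87 FPKM in bile duct organoids 1, 2 and 3, against 12.9 in the epithelium, and at 5.97, 16.3 and 8.19 in pancreatic duct organoids, against 5.45. All 3 bile duct organoids lay below their epithelium, whereas pancreatic duct organoids 2 and 3 lay above theirs and organoid 1 fell just under it after scaling. S100a8 was at 1.21, 0 and 0.0783 FPKM in bile duct organoids and at 1.59, 2.13 and 0.277 in pancreatic duct organoids, where organoids 1 and 2 stood above the epithelium at 0.466 and organoid 3 below it. Calprotectin genes are known in epithelial cells as well as in neutrophils. Cd68 was at 4.56, 3.62 and 2.16 FPKM in bile duct organoids, at most 18.4% of the epithelium in deposited FPKM. In pancreatic duct organoids it was at 2.32, 10.9 and 4.62, where organoid 2 reached 92.9% of the epithelium in deposited FPKM. After scaling, that organoid stood at 10.5 against 13.7 in the epithelium.

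Lck was at 1.38, 0.7 and 0.687 FPKM in bile duct organoids and at 0.421, 1.32 and 0.672 in pancreatic duct organoids, with 19 to 72 reads in each library, so that the groups overlapped. In deposited FPKM it was thus read in culture at up to 46.1% of bile duct and 67.9% of pancreatic duct epithelium. After scaling, its highest organoid stood at 1.38 against 3.44 in bile duct and at 1.28 against 2.27 in pancreatic duct. Of the other T cell members with whole reads, 7 (Cd3d, Cd3g, Cd4, Cd8a, Cd8b1, Trac and Cd2) had at most 1 read in any organoid. Cd3e had 2, 0 and 11 reads in bile duct organoids and 1, 3 and 0 in pancreatic duct organoids, and Trbc2 had 10, 3 and 5 and 2, 10 and 4. Csf1r was at 0.529, 0.174 and 0.390 FPKM in bile duct organoids and at 3.47, 1.01 and 1.33 in pancreatic duct organoids, against 27.4 and 19.3 in the epithelia. The organoid groups of Csf1r did not overlap. This is a description only, as the share of all genes whose groups lie apart was not counted. Of the exon bases of Csf1r, 15.1% lie in exons of the neighbouring Hmgxb3. The strand used in counting is not given in the sources used here, so reads of the pair may have been mixed.

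**Figure D4:**
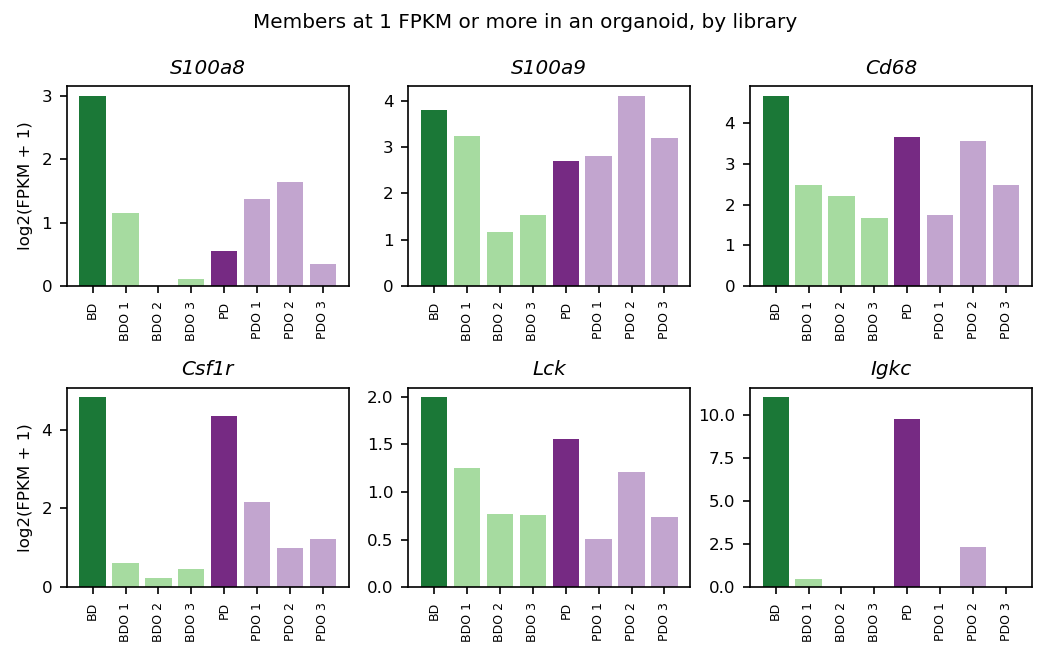
log2(FPKM + 1), from deposited FPKM, of the 6 members at 1 FPKM or more in any organoid, 1 bar per library (BD and PD, epithelia; BDO and PDO, organoids 1 to 3). The bars above their epithelium are those of S100a9 in pancreatic duct organoids 1 to 3 and of S100a8 in pancreatic duct organoids 1 and 2, and Igkc shows in bile duct organoid 1 and pancreatic duct organoid 2.

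The organoid groups were compared with limma over the 12094 genes at 1 scaled FPKM or more in at least 3 organoids. No gene passed an adjusted p of 0.05, 0.0% of those tested (0 calls also by limma without a trend), and 309 (2.55%) had an unadjusted p under 0.05. Of the 44 members, 4 could be tested, and 0 passed. Csf1r had a log2 difference, bile duct minus pancreatic duct organoids, of -1.02 (SE 0.33, limma adjusted p = 1.00). It reached the level for testing only through the 3 pancreatic duct organoids, so a difference was built into its selection and its value is a description. S100a9 differed by -1.39 (SE 0.63, limma adjusted p = 1.00), and on leaving out each organoid by -2.05 (without bile duct organoid 1, limma adjusted p = 0.534) to -0.97 (without bile duct organoid 2, limma adjusted p = 1.00). S100a8 differed by -0.70 (SE 0.47), with -1.10 without pancreatic duct organoid 3 and -0.49 without bile duct organoid 2, and Cd68 by -0.48 (SE 0.49), both with an adjusted p of 1.00 in limma over all 6 organoids. On leaving out each organoid, the Cd68 difference ran from -0.91 without pancreatic duct organoid 1 to 0.02 without pancreatic duct organoid 2.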

How the data were processed

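Gene expression was measured by poly-A RNA sequencing from libraries made with the NEBNext Ultra kit (source: the labels' protocols). The authors deposited 1 table of FPKM values, with 1 column per library. Bowtie2 2.2.3, TopHat2, HISAT2 2.1.0 and HTSeq 0.6.0 are named in the submitters' processing notes, without their roles. Annotation, strand and filters are not given in the sources used here. Multiplying FPKM by merged GENCODE M21 exon length gave whole reads, within 0.05 of a read, in all 8 libraries for 28310 genes (90.7%). Intervals from these reads are exact conditional binomial ones and cover counting error only. FPKM values were scaled by a trimmed mean of log ratios (30% of ratios and 5% of levels trimmed) over genes at 1 FPKM or more in any library, using all 8 libraries, or the 6 organoids for limma. Comparisons with an epithelium kept genes at 1 scaled FPKM or more on either side and counted differences of at least 2-fold, for organoids with all 3 on the same side. The organoid groups were tested with limma 3.58.1 in R 4.3.3 on log2(scaled FPKM + 1) with an intensity trend and Benjamini-Hochberg adjustment over all genes; the script was tested on simulated data. The 44 members and the other lists were chosen with earlier results of these data known. Named are members at 5 FPKM or more in an epithelium or 1 in an organoid, at most 3 genes of each other list by the widest difference between the epithelia, and genes whose sequence or function overlaps a member; weaker members are named with their role. A gene that met this rule is not reported here. Of the 215 genes listed beside the members, 214 were in the table. Alternatives covered scaling, pseudocount, filter, trend, replicate block and leaving out each organoid.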

Additional observations from a re-analysis of the deposited data

How the results depend on the processing

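With deposited FPKM, the epithelia gave 23 members apart (19 and 4 by direction, as with scaling), Cd3d dropping under 2-fold and Fcer1g passing it. With a pseudocount of 0.1 they gave 28 (24 higher in bile duct, 4 in pancreatic duct), with Cd3e, Cd3g, Cd5, Itgam and Fcer1g added, and at 5 FPKM or more 19 of 31. The sign held for 43 of 43 members under both other scales. In bile duct, 42 of 42 members were lower in organoids whichever organoid was left out, and 29 of 29 at 5 FPKM or more. In pancreatic duct, the count ran from 31 to 33 on leaving out an organoid, and was 21 of 22 at 5 FPKM or more, where fewer genes are tested. For the organoid groups, limma made 0 calls under other scaling, pseudocount, filter and trend. The size of the differences depended on the pseudocount. At 0.1 they were -2.02 (SE 0.61) for Csf1r, -1.96 (SE 1.23) for S100a8, -1.72 (SE 0.77) for S100a9 and -0.56 (SE 0.59) for Cd68. Leaving out each organoid in turn gave 0 to 11 calls. The 11 came without pancreatic duct organoid 3, 10 of them higher in pancreatic duct, and the cause was not tested. Whether replicate numbers pair the organoids could not be decided, because deviations from a mean of 3 cultures are not independent of each other. Deviations of organoids with the same number correlated at -0.10, -0.44 and 0.48. Bile duct organoid 1 correlated best with pancreatic duct organoid 2 (0.65), and the organoids numbered 3 correlated best with each other. With the replicate number as a block, limma made 0 calls, with 289 genes at an unadjusted p under 0.05 against 309. With 1 library for each epithelium, no replicate error bears on their differences, and members under 1 FPKM rest on few reads.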
